A study of Homo sapiens with 12 samples.

Results

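The genes described here encode the subunits of the proteasome and the factors that help to assemble it. They were taken as every row whose symbol starts with PSM, then one of the letters A to G, then a number, provided that the symbol stood once in the table and reached 1 FPKM in at least 3 of the 12 libraries. FPKM is the fragment count of a gene scaled to its length and to the library total. The rule gave 45 genes of the 9751 tested, and all 45 of the matching symbols in the table passed the filter. RNA had been sequenced from neutrophil-type cells derived from HL-60, a human promyelocytic leukaemia line that can be driven towards granulocytes in culture. Each of the 4 groups had 3 libraries, collected 24 h after stimulation. One group received advanced glycation end products (AGEs) at 0.05 µg/mL, and one received D-glucose at 30 mmol/L. Another received AGEs at 0.05 µg/mL together with D-glucose at 30 mmol/L, and the control group received bovine serum albumin (BSA) at 0.05 µg/mL. All cells were grown in the same serum-containing medium, the labels do not list BSA for the glucose libraries, and the agent used to induce the cells is not named in them. Whether replicate libraries stem from different cultures is not labelled, and every p-value therefore reflects the scatter among these libraries, part or all of which could be technical.

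The proteasome is the barrel-shaped protease that degrades proteins tagged with ubiquitin. Its core is built of outer rings of alpha subunits (PSMA genes), which gate the entrance, and inner rings of beta subunits (PSMB genes), which carry the active sites. PSMB5, PSMB6 and PSMB7 are the catalytic subunits of the constitutive core, and interferon-inducible PSMB8, PSMB9 and PSMB10 replace them in the immunoproteasome, a form that is abundant in blood cells and supplies peptides for MHC class I. Caps open the core. The regulatory cap has a base of ATPases that unfold substrates (PSMC genes) and non-ATPase subunits (most PSMD genes), some of which bind or remove ubiquitin. The 11S cap is made of PSME1 and PSME2. PSME3 and PSME4 form other activators, and PSMF1 encodes a protein known to inhibit the core in vitro. PSMG1 to PSMG4 are chaperones of core assembly, and PSMD9 and PSMD10 are chaperones of the cap's base.

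Promoter sequences are shown for the genes of the core, the 11S cap and the assembly chaperones to which the values below return. They are RefSeq reference windows on GRCh38.p14, the 250 bases before the annotated start, printed 5′ to 3′ on the strand of the gene. Of the 45 genes, 39 had such a window. Every window printed here holds a match to a motif named below, so the windows shown cannot be read as typical of the 39. The letters TGACNNNGC, the antioxidant response element that NRF1 and NRF2 (NFE2L1 and NFE2L2) are known to bind in proteasome genes, were searched on both strands, as were an interferon response element (GAAA, any 2 bases, GAAA) and TTCNNNGAA, a gamma-activated site. None of these motifs shared a base with another in the windows printed, and matches are in capitals; other motifs counted below are not marked.
The window of PSMB3, the core beta gene with the smallest p for glucose against BSA, lies at chr17:38752491-38752740 on the plus strand, and the capitals mark an antioxidant response element that begins 104 bases before the start.
PSMB3: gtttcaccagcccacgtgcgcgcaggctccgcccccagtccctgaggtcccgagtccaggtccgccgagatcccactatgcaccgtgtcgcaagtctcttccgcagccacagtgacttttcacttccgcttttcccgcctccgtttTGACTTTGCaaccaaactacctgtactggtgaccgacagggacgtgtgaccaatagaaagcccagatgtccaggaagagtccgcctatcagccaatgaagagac
The window of PSMG1, an assembly chaperone whose glucose and BSA values did not overlap, lies at chr21:39183452-39183701 on the minus strand, and its antioxidant response element begins 183 bases before the start.
PSMG1: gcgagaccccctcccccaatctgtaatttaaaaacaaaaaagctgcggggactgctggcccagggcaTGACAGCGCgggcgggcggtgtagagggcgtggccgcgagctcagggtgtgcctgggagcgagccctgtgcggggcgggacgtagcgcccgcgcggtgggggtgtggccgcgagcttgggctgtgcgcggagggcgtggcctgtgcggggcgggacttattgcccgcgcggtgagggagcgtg
The windows of the 11S partners lie at chr14:24135944-24136193 on the plus strand (PSME1) and chr14:24146611-24146860 on the minus strand (PSME2). Capitals mark an antioxidant response element in PSME1, and in PSME2 an antioxidant response element and, nearer to the start, an interferon response element.
PSME1: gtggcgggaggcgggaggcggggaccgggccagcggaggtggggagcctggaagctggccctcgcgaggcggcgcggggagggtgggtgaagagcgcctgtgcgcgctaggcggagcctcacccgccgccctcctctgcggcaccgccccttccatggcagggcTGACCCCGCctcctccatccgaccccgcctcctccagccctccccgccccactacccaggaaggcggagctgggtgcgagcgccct
PSME2: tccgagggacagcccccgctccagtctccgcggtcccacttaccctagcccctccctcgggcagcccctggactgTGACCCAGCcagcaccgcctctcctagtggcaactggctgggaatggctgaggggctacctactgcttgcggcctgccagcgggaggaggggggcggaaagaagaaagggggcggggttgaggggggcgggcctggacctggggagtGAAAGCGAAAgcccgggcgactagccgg
The window of PSMB10, shown as the immunoproteasome catalytic gene with an interferon response element, lies at chr16:67936851-67937100 on the minus strand, and the element begins 21 bases before the start.
PSMB10: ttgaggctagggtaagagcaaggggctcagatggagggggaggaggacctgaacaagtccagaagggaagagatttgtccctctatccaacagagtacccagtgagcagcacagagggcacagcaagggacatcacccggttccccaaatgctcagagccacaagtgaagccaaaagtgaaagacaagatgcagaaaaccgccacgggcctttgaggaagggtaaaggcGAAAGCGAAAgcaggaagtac

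Over all 39 genes with a window, 12 (30.8%) held the antioxidant response element, against 16.2% of the tested genes with windows and 13.2% of all RefSeq genes with windows. The 12 genes were PSMA4, PSMB3, PSMB9, PSME1, PSME2, PSMC5, PSMD3, PSMD12, PSME4, PSMG1, PSMG2 and PSMD9, so they span the core, the caps and the chaperones. Among members with an unadjusted p under 0.05 for glucose against BSA, PSMA4, PSMB3, PSME2, PSMC5 and PSMG1 are in this list. PSMA3, PSMA5, PSMA6, PSMA7, PSMB5 and PSMD1, also under that p, are not in it, though not every member had a window. The interferon response element was in 5 genes (12.8%, against 3.33% of tested genes and 3.71% of all genes), namely PSMA4, PSMB4, PSMB10, PSME2 and PSMG4. The gamma-activated site was in 6 genes (15.4%, against 7.37% and 8.09%), PSMB8 among them. CCAAT, the letters of the CCAAT box, stood in 18 genes (46.2%, against 41.9% and 37%), and CCGGAAG, an ETS site, in 10 genes (25.6%, against 21.7% and 10.2%). The heat shock element (GAA, TTC and GAA with any 2 bases between them) was in 0 of the 39, against 0.42% and 0.557%. These are matches of letters, not sites shown to be bound.

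The FPKM values of a library summed to between 220444 in glucose 3 and 233854 in glucose 1. Next to these ends were BSA 2 at 221894 and glucose 2 at 232766. Read counts cannot be recovered from FPKM, and the sequencing depth is unknown. Pairwise correlations over genes were 0.972 to 0.986 within groups and 0.97 to 0.986 between groups. Of 17 neutrophil markers 13 were in the table, with CYBB at 337 to 395 FPKM, S100A9 at 326 to 448 FPKM and ITGB2 at 149.9 to 199 FPKM, but AZU1 at 0.162 to 1.07 FPKM, PRTN3 at 0.893 to 1.66 FPKM, CEACAM8 at 0.697 to 1.42 FPKM and FPR1 at 4.01 to 5.64 FPKM. The granule and receptor genes ELANE, FCGR3B, CXCR1 and LTF were not analysed here. Of 5 eosinophil and basophil markers 3 were in the table, CLC at 2085 to 2563 FPKM, PRG2 at 80.9 to 180 FPKM and EPX at 11.8 to 17.6 FPKM. Monocyte (1 of 5), T cell (1 of 3) and B cell (1 of 3) lists had 1 gene each in the table, the highest CSF1R at 6.23 to 10.8 FPKM, and the erythroid list (0 of 3) had none. AGEs library 1 and glucose library 3 stood apart. Each library was set against the 12-library mean of each gene, on the log2(FPKM + 1) scale. In AGEs 1 these deviations increased by 0.19 per 10 percentage points of GC content, against -0.05 to 0.01 in the other 11 libraries. Quality weights estimated by limma were lowest in the same libraries, 0.181 for AGEs 1 and 0.418 for glucose 3, against 0.797 to 1.82 in the other 10.

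By median, proteasome genes lay above the genes tested, with exceptions. Their median 12-library mean was 16.4 FPKM, against 6.89 FPKM for all genes tested. PSMD6, PSMD9 and PSMG4 were below 6.89 FPKM, and single members ran from 1.27 FPKM (PSMG4) to 92.9 FPKM (PSMB4). Levels differed widely inside one particle. In the alpha ring, whose 7 subunits are present in equal numbers, PSMA7 had a mean of 84.8 FPKM and PSMA6 one of 10.9 FPKM. In the beta ring PSMB4 had 92.9 FPKM, PSMB3 87.5 FPKM and PSMB5, the chymotrypsin-like subunit, 11.4 FPKM. Among the 6 ATPases of the base, PSMC3 was highest at 38.6 FPKM and PSMC6 lowest at 8.47 FPKM. Among the 11 non-ATPase cap genes, PSMD4, a ubiquitin receptor, was highest at 65.2 FPKM and PSMD6 lowest at 5.59 FPKM. Assembly genes were the lowest group by median (8.34 FPKM), with PSMG2 at 19.5 FPKM, PSMD9 at 2.81 FPKM and PSMG4 at 1.27 FPKM. The immunoproteasome genes stood at 70.6 FPKM (PSMB8), 57.8 FPKM (PSMB10) and 13.2 FPKM (PSMB9). Their 11S partners stood at 84.8 FPKM (PSME1) and 24.5 FPKM (PSME2).

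**Figure D1:**
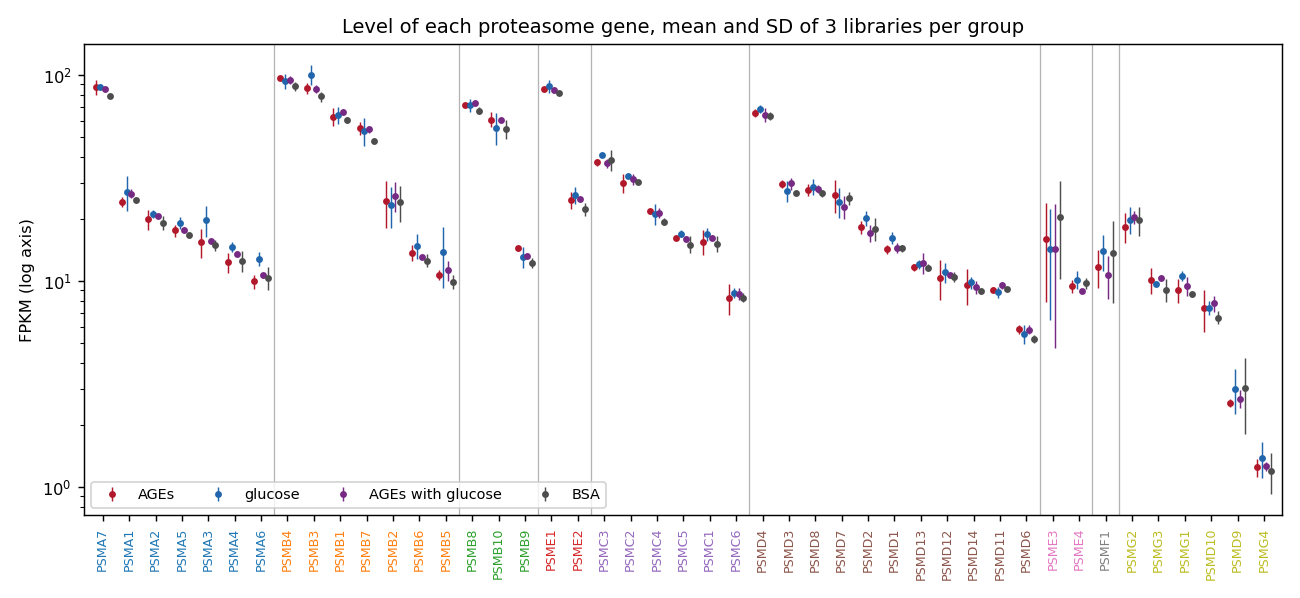
Level of each of the 45 proteasome genes in FPKM on a log axis, as the mean with SD of the 3 libraries of each group, AGEs, glucose, AGEs with glucose and BSA; gene names are coloured by role. Members span 1.27 to 92.9 FPKM, and within a gene the 4 group means lie close together compared with the distances between genes.

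Of the immunoproteasome genes, PSMB8 exceeded its constitutive counterpart PSMB5 in every library, while the other pairs had ratios near 1. The ratio of PSMB8 to PSMB5, which hold the same place in the ring, averaged 6.69 ± 0.303 in AGEs, 5.58 ± 1.83 in glucose, 6.53 ± 0.627 in AGEs with glucose and 6.81 ± 0.414 in BSA (SD, n = 3 each). It was 3.48 in glucose 3 and 6.17 to 7.27 in the other 11 libraries. PSMB9 to PSMB6 gave a ratio of 1.05 ± 0.0697 in AGEs, 0.888 ± 0.0991 in glucose, 1.01 ± 0.0105 in AGEs with glucose and 0.979 ± 0.0225 in BSA (SD, n = 3 each). For PSMB10 and PSMB7 the ratio was 1.1 ± 0.0466 in AGEs, 1.03 ± 0.0724 in glucose, 1.11 ± 0.0427 in AGEs with glucose and 1.15 ± 0.0901 in BSA (SD, n = 3 each). Differences between groups in these ratios were not tested.

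No proteasome gene passed the test in any comparison, whether against BSA, between AGEs and glucose, for the main effects or for the interaction (limma, 0 of 45 with adjusted p under 0.05 in each of the 7). Passing genes were few in the whole table too. They made up 0.103% of all genes for glucose against BSA, 0.0308% for AGEs against BSA and 0.0103% for AGEs with glucose against BSA. At an unadjusted p under 0.05, glucose against BSA had 11 members higher and 0 lower. AGEs against BSA had 1 higher (2.22%, against 2.73% of all genes) and 0 lower (against 2.01%). AGEs with glucose against BSA had 0 higher (against 2.95%) and 0 lower (against 2.52%). In bulk RNA a different number of cells of a type and a different amount of RNA per cell cannot be told apart.

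The glucose libraries nevertheless lay slightly above BSA for most of the complex. The log2 fold change was above 0 in 41 of 45 members (91.1%, against 49.6% of all genes), with a median of 0.10 against -0.0015 for all genes tested. The 11 members with an unadjusted p under 0.05 in the higher direction were 24.4% of the members, where the whole table had 4.68% in that direction and 5.34% in the lower one. In 9 members every glucose library was above every BSA library (20%, against 7.92% of all genes), and in 0 members was every glucose library below (against 9.03%). The median was 0.15 without glucose 3, and 0.06 with 38 members above 0 once trends with GC content and transcript length were removed from each library, an alternative chosen after seeing the data. The number higher at an unadjusted p under 0.05 moved with the library left out. It was 4 (8.89%, against 3.18% of all genes in the same fit) without BSA 2, 6 (13.3%, against 3.32%) without BSA 1 and 10 (22.2%, against 4.61%) without BSA 3. It was 5 (11.1%, against 3.15%) without glucose 1, 5 (11.1%, against 3.75%) without glucose 2 and 14 (31.1%, against 5.74%) without glucose 3. Weighting libraries by quality made 1 member, PSMB3, pass (log2 fold change 0.39, adjusted p = 0.0222 in limma), in a fit that passed 127 genes; over all alternatives run, the adjusted p of PSMB3 ranged from 0.0222 to 0.555.

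The members' median deviation from their own 12-library means shows which libraries carried this. It was 0.10 in glucose 1, 0.09 in glucose 2 and -0.02 in glucose 3, against -0.09 in BSA 1, -0.10 in BSA 2 and -0.02 in BSA 3. Of the 45 members, 36, 39 and 19 lay above their own mean in glucose 1, 2 and 3, and 6, 8 and 16 in BSA 1, 2 and 3. So glucose 3 and BSA 3 lay together near 0 while the other libraries of these groups lay on opposite sides. The AGEs libraries stood at -0.05, 0.06 and -0.0075, and the AGEs with glucose libraries at 0.01, -0.0064 and 0.03.

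**Figure D2:**
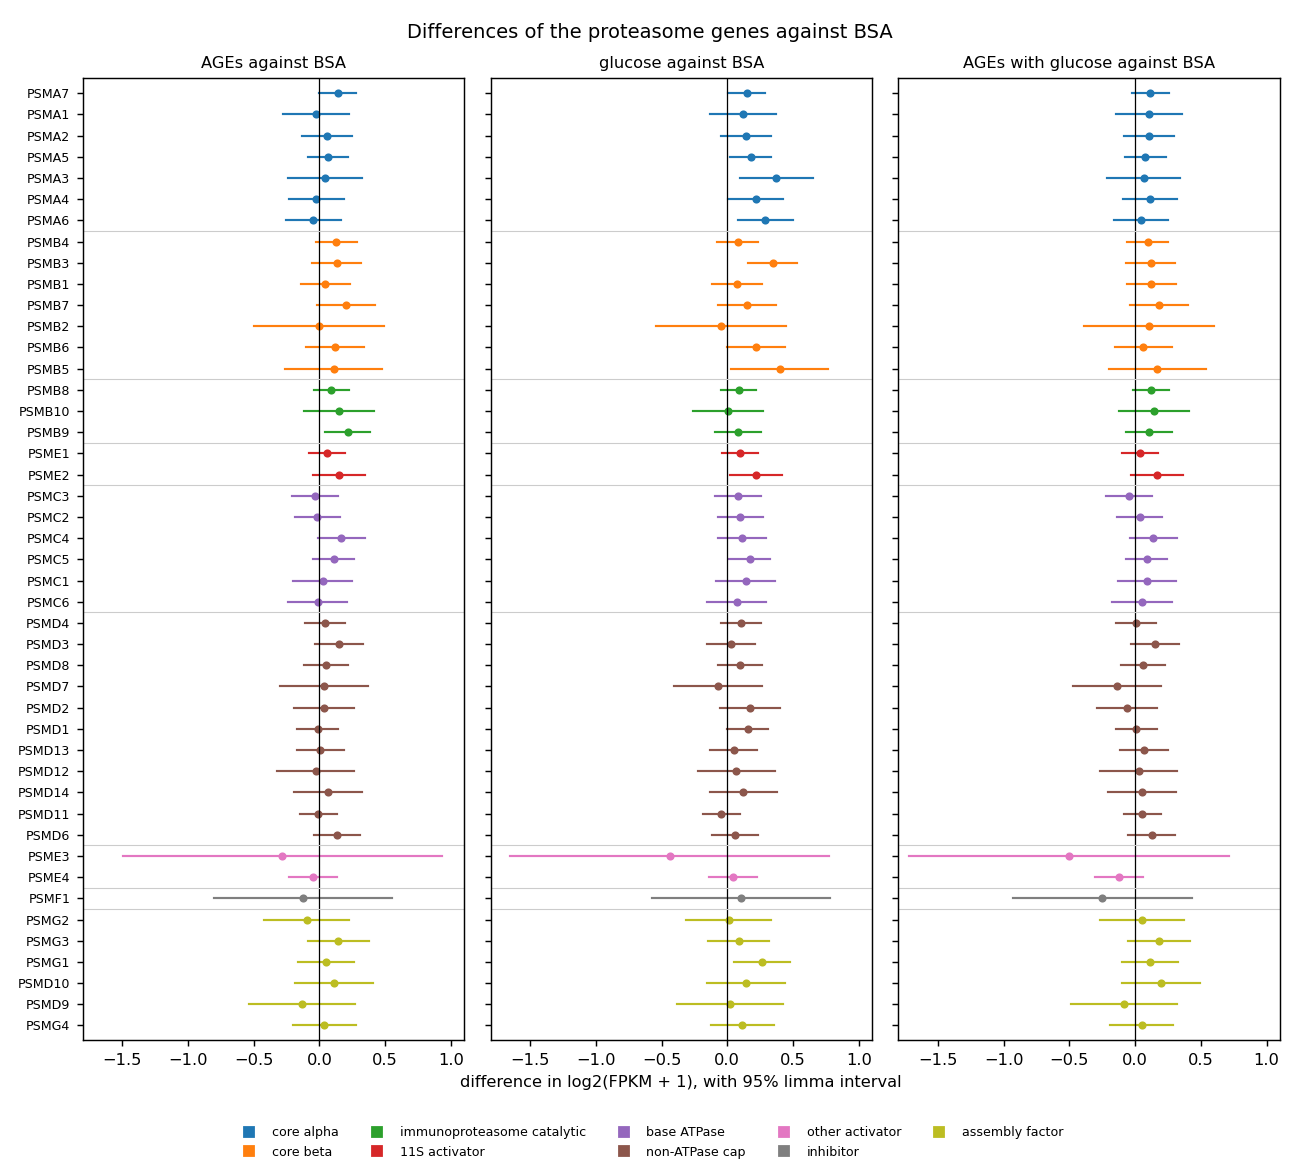
Difference in log2(FPKM + 1) of each proteasome gene for AGEs, glucose and AGEs with glucose, each against BSA (points, with 95% limma intervals), coloured by role. In the glucose panel 41 of 45 points lie right of 0, and PSME3 has the widest interval in each panel.

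Among roles with a median above 0, the difference of glucose from BSA was largest in the alpha ring. All 7 alpha genes were above 0, their median log2 fold change was 0.18, and 5 of them had an unadjusted p under 0.05. Of all genes tested, 49.6% were above 0 and 4.68% were higher at that p. Medians were 0.15 for the 7 beta genes (6 above 0), 0.16 for the pair of 11S genes, 0.11 for the 6 ATPases (6 above 0), 0.10 for the 6 assembly genes (6 above 0), 0.08 for the 3 immunoproteasome catalytic genes (3 above 0) and 0.07 for the 11 non-ATPase cap genes (9 above 0). The 2 other activators, PSME3 and PSME4, had a median of -0.20 (1 above 0), and the inhibitor PSMF1 stood at 0.11. Differences between roles were not tested.

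PSMA6, PSMA3 and PSMA4 are alpha-ring subunits, here with the 3 libraries of each group given in the order 1, 2, 3. PSMA6 had 9.05, 10.6 and 10.2 FPKM in AGEs, 11.6, 13.4 and 13.3 FPKM in glucose, 10.8, 10.3 and 10.8 FPKM in AGEs with glucose, and 9.62, 11.8 and 9.46 FPKM in BSA. BSA 2 reached into the range of the glucose libraries, while AGEs and glucose did not overlap. The log2 fold change was 0.29 ± 0.09 for glucose against BSA (limma SE, adjusted p = 0.348) and -0.34 ± 0.09 for AGEs against glucose (limma SE, adjusted p = 0.328). PSMA3 had 12.9, 17.9 and 15.6 FPKM in AGEs, 17.0, 23.6 and 18.5 FPKM in glucose, 16.0, 15.8 and 14.965 FPKM in AGEs with glucose, and 15.6, 13.9 and 15.1 FPKM in BSA. Glucose 2 was the highest library and AGEs 1 the lowest, and glucose did not overlap BSA (log2 fold change 0.37 ± 0.13, limma SE, adjusted p = 0.374). PSMA4 had 15.4, 13.8 and 14.7 FPKM in glucose and 13.6, 13.1 and 10.9 FPKM in BSA, separate groups with a log2 fold change of 0.22 (adjusted p = 0.485, limma). PSMA5 and PSMA7 were likewise separate, with log2 fold changes of 0.18 (adjusted p = 0.445, limma) and 0.15 (adjusted p = 0.478, limma). PSMA7, the most abundant alpha gene, also had all 3 AGEs libraries (80.8 to 95.4 FPKM) and all 3 AGEs with glucose libraries (82.4 to 88.3 FPKM) above BSA (78.0 to 79.6 FPKM).

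PSMB3, a structural beta subunit without an active site, had the smallest p of any member against BSA. It stood at 79.9, 90.9 and 87.3 FPKM in AGEs, 108, 104 and 88.1 FPKM in glucose, 87.9, 86.6 and 81.2 FPKM in AGEs with glucose, and 83.1, 74.4 and 78.0 FPKM in BSA. Glucose 1 and 2 were the highest of the 12 libraries, and glucose 3 lay inside the range of AGEs. The mean was 100.3 ± 10.8 FPKM in glucose and 78.5 ± 4.36 FPKM in BSA (SD, n = 3 each). The log2 fold change was 0.35 ± 0.08 with a 95% interval of 0.16 to 0.53 (limma, adjusted p = 0.202). AGEs with glucose against BSA gave 0.12 (adjusted p = 0.895, limma) and the interaction -0.36 ± 0.12 (adjusted p = 0.936, limma), so the difference between the effects of glucose without and with AGEs did not pass. PSMB3 has 1 pseudogene copy in the annotation and PSMA6 has 4, and how the counting treated reads shared with such copies is not given in the sources used here.

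**Figure D3:**
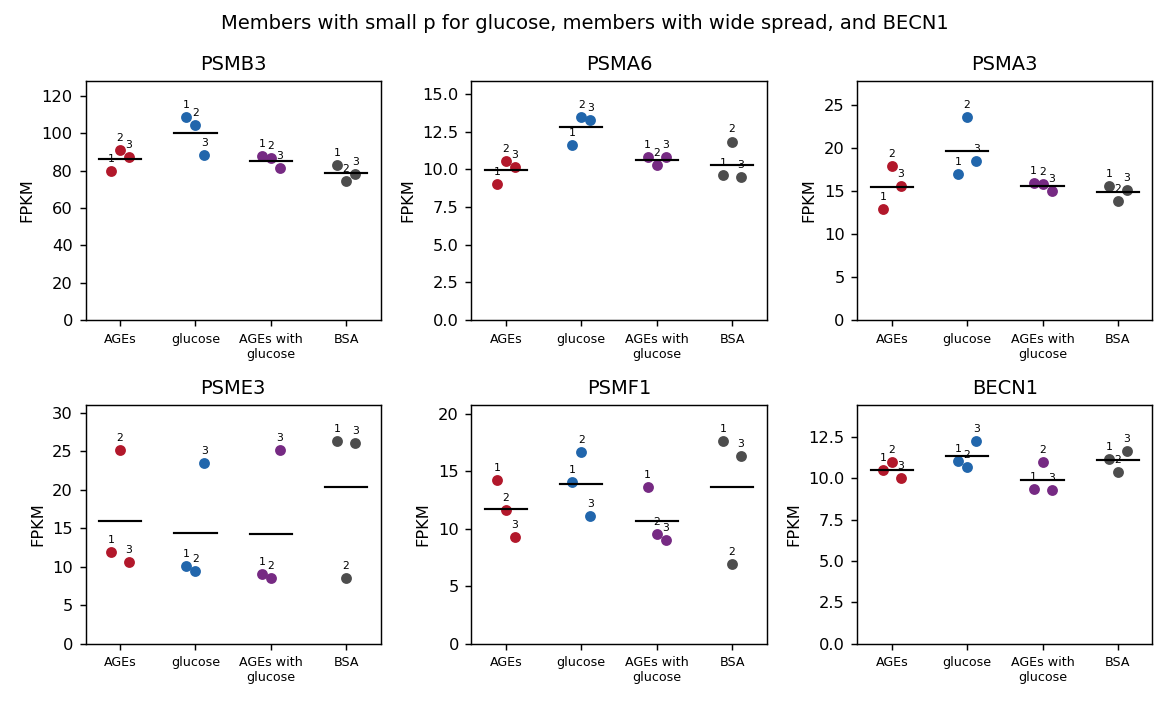
FPKM of PSMB3, PSMA6, PSMA3, PSME3, PSMF1 and BECN1 in each library, numbered 1 to 3 within its group, with the group mean as a bar. PSMB3, PSMA6 and PSMA3 have their highest group mean in glucose, PSME3 splits into 5 high and 7 low libraries across all 4 groups, and BECN1, on the opposite strand of PSME3, stays between 9.29 and 12.3 FPKM.

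The constitutive catalytic genes did not pass in any comparison. PSMB5 had 10.1, 11.2 and 10.8 FPKM in AGEs, 11.6, 10.7 and 18.9 FPKM in glucose, 9.79, 12.2 and 11.7 FPKM in AGEs with glucose, and 9.61, 9.25 and 10.7 FPKM in BSA. Glucose 3 was far above every other library. The log2 fold change for glucose against BSA was 0.40 ± 0.17 (limma SE, adjusted p = 0.473), and 0.16 without glucose 3 (adjusted p = 0.573, within 0.337 to 0.769 over all alternatives, limma). PSMB6, the caspase-like subunit, had 13.8, 14.8 and 12.4 FPKM in AGEs, 16.3, 15.6 and 12.5 FPKM in glucose, 13.1, 12.9 and 13.3 FPKM in AGEs with glucose, and 11.6, 12.6 and 13.4 FPKM in BSA. Here glucose 3 lay with BSA and the other glucose libraries above (log2 fold change 0.22 ± 0.10, limma SE, adjusted p = 0.502). PSMB7, the trypsin-like subunit, had 51.6, 59.3 and 54.6 FPKM in AGEs, 59.9, 56.7 and 44.0 FPKM in glucose, 52.4, 54.1 and 56.4 FPKM in AGEs with glucose, and 46.3, 47.7 and 49.3 FPKM in BSA. AGEs and AGEs with glucose were each separate from BSA, and glucose 3 was the lowest library. The log2 fold changes against BSA were 0.20 for AGEs, 0.15 for glucose and 0.18 for AGEs with glucose, none past the threshold (adjusted p of 0.977, 0.698 and 0.892, limma).

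The immunoproteasome catalytic genes were above BSA in the AGEs group by a median log2 fold change of 0.15. It was 0.05 once GC and length trends were removed. The 7 beta genes were close, with a median of 0.12 and 6 above 0, where 49.5% of all genes were. PSMB9 was the only member with an unadjusted p under 0.05 for AGEs against BSA (2.22%, against 2.73% of all genes). PSMB9 had 14.2, 14.9 and 14.1 FPKM in AGEs, 14.8, 12.2 and 12.2 FPKM in glucose, 13.2, 13.0 and 13.6 FPKM in AGEs with glucose, and 11.6, 12.1 and 13.0 FPKM in BSA. Every AGEs library was above every BSA library (log2 fold change 0.21 ± 0.08, limma SE, adjusted p = 0.958). PSMB8, the partner of PSMB5, had 71.0, 73.0 and 70.2 FPKM in AGEs, 75.5, 72.3 and 65.9 FPKM in glucose, 71.1, 75.3 and 72.2 FPKM in AGEs with glucose, and 64.4, 67.2 and 69.3 FPKM in BSA. AGEs and AGEs with glucose were separate from BSA by narrow margins, and glucose overlapped it. Its log2 fold changes were 0.09 for AGEs, 0.09 for glucose and 0.12 for AGEs with glucose, each with a limma SE of 0.06 (adjusted p of 0.977, 0.713 and 0.892). PSMB10 had 58.4, 66.4 and 57.2 FPKM in AGEs, 58.6, 63.2 and 44.2 FPKM in glucose, 59.96, 61.1 and 59.97 FPKM in AGEs with glucose, and 51.7, 51.2 and 61.5 FPKM in BSA. Glucose 3 was the lowest library and the BSA range overlapped all the other groups. PSMB10 gave 0.15 for AGEs, 0.0027 for glucose and 0.14 for AGEs with glucose (adjusted p of 0.977, 0.997 and 0.914, limma), and the value for glucose was below 0 in 6 of the alternatives run.

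PSMB8, PSMB9 and TAP1, the peptide transporter gene, lie side by side and their annotated spans overlap, as does an antisense transcript, PSMB8-AS1. The strand setting of the counting is not given in the sources used here, so reads of overlapping genes may not have been kept apart. TAP1 had 24.2, 19.0 and 19.3 FPKM in AGEs, 16.1, 16.8 and 17.1 FPKM in glucose, 16.6, 19.6 and 17.6 FPKM in AGEs with glucose, and 18.8, 18.8 and 19.9 FPKM in BSA. For glucose against BSA its log2 fold change was -0.19 ± 0.09 (limma SE, adjusted p = 0.558), while those of PSMB8 and PSMB9 were 0.09 and 0.08. AGEs 1, the library with the GC trend, was the highest for TAP1 and near the middle of its group for PSMB8 and PSMB9.

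**Figure D4:**
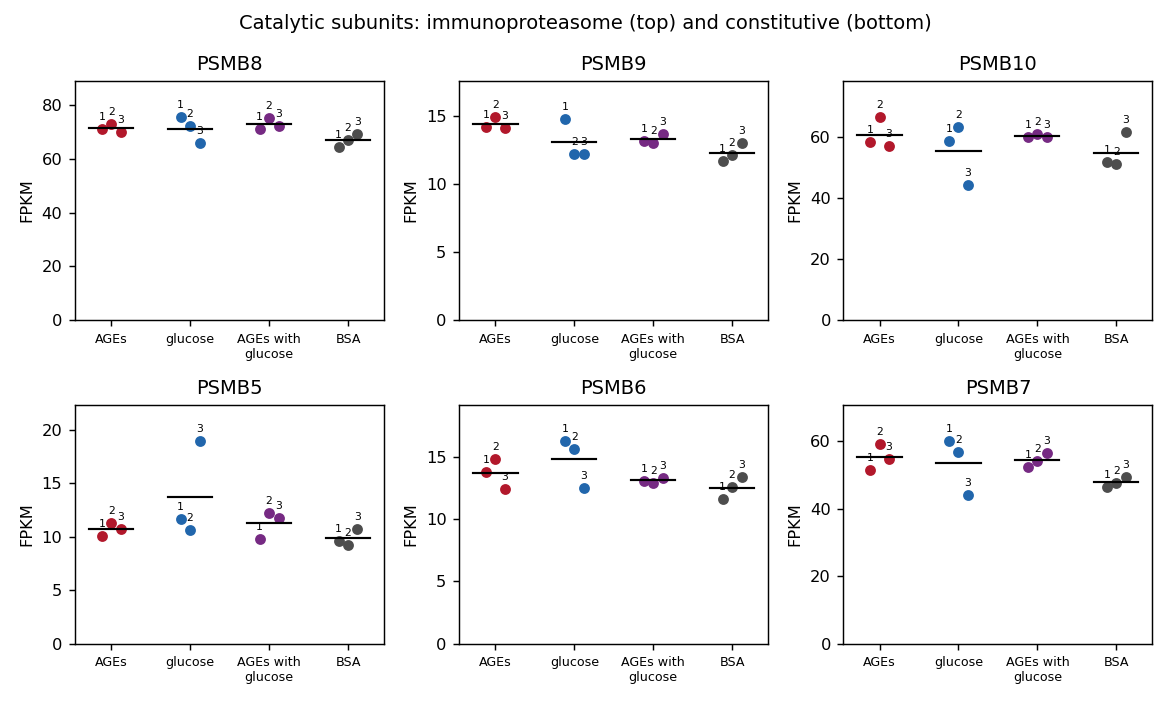
FPKM of the immunoproteasome catalytic genes PSMB8, PSMB9 and PSMB10 (top) and their constitutive counterparts PSMB5, PSMB6 and PSMB7 (bottom) in each library, numbered 1 to 3, with group means as bars and axes from 0. Glucose 3 is the highest library for PSMB5 and the lowest for PSMB7 and PSMB10, and PSMB9 in AGEs lies above BSA in all 3 libraries.

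The 11S cap genes showed the same small differences. PSME1 had 82.8, 87.2 and 86.0 FPKM in AGEs, 92.2, 91.0 and 80.6 FPKM in glucose, 84.2, 81.2 and 87.1 FPKM in AGEs with glucose, and 82.2, 79.3 and 84.3 FPKM in BSA. All groups overlapped BSA, and the log2 fold change for glucose was 0.10 ± 0.06 (limma SE, adjusted p = 0.66). PSME2 had 22.1, 25.5 and 26.7 FPKM in AGEs, 26.9, 28.2 and 23.3 FPKM in glucose, 24.3, 25.4 and 25.3 FPKM in AGEs with glucose, and 21.6, 21.0 and 24.0 FPKM in BSA. AGEs with glucose was separate from BSA by a narrow margin, and glucose 1 and 2 were the highest libraries. Its log2 fold changes were 0.15 for AGEs, 0.22 for glucose and 0.16 for AGEs with glucose (adjusted p of 0.977, 0.46 and 0.892, limma). PSME1 stayed near 0 in AGEs (0.06) and in AGEs with glucose (0.04), and both values were slightly below 0 under quantile normalization and after the removal of GC and length trends.

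Genes of the regulatory cap had small differences in each comparison. In the base, PSMC5 had a mean of 16.9 ± 0.646 FPKM in glucose and 14.996 ± 1.43 FPKM in BSA (SD, n = 3 each), a log2 fold change of 0.17 (adjusted p = 0.473, limma), and the other 5 ATPases had larger p. PSMC4 was above BSA in all 3 libraries of AGEs and of AGEs with glucose (log2 fold changes 0.17 and 0.14, adjusted p of 0.977 and 0.892, limma). Among non-ATPase genes, PSMD1, a large scaffold subunit, averaged 16.1 ± 1.04 FPKM in glucose and 14.4 ± 0.576 FPKM in BSA (SD, n = 3 each), with a log2 fold change of 0.16 (adjusted p = 0.498, limma). PSMD3, a lid subunit, was separate from BSA in AGEs (29.6 ± 1.35 FPKM) and in AGEs with glucose (29.7 ± 1.99 FPKM), where BSA had 26.6 ± 0.532 FPKM (SD, n = 3 each). PSMD3 had the smallest p among members for the AGEs main effect, the mean of the comparisons of AGEs with and without glucose (log2 0.13 ± 0.06, limma SE, adjusted p = 0.843). PSMD7, also of the lid, and PSMD11 were the non-ATPase genes below 0 for glucose against BSA, at -0.07 (adjusted p = 0.917) and -0.04 (adjusted p = 0.87, limma). The sign of PSMD11 turned without glucose 3.

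PSME3 and PSMF1 varied between libraries more than any other member, with high and low libraries inside single groups. PSME3, which builds an activator of the nuclear proteasome, had 11.9, 25.2 and 10.6 FPKM in AGEs, 10.1, 9.48 and 23.5 FPKM in glucose, 9.02, 8.48 and 25.1 FPKM in AGEs with glucose, and 26.3, 8.59 and 26.0 FPKM in BSA. So 5 libraries lay at 23.5 to 26.3 FPKM and 7 at 8.48 to 11.9 FPKM, with nothing between, and each group had both kinds. Its SD on the log2 scale was 0.678, where the median member had 0.124 and the median gene 0.136, and it ranked 62 among the 5951 genes with a mean of at least 5 FPKM. The log2 fold change for glucose against BSA was -0.44 ± 0.55 (limma SE, adjusted p = 0.844), and its intervals were the widest of the members. BECN1, a coding gene on the opposite strand that overlaps PSME3, ranged over 9.29 to 12.3 FPKM, with 10.99 FPKM in AGEs 2 and 10.4 FPKM in BSA 2. PSMF1 had 14.2, 11.6 and 9.26 FPKM in AGEs, 14.0, 16.6 and 11.1 FPKM in glucose, 13.6, 9.51 and 8.97 FPKM in AGEs with glucose, and 17.6, 6.95 and 16.3 FPKM in BSA. Both the highest and the lowest library of PSMF1 were BSA libraries. PSME4, which encodes another activator, was the sole member with all 3 AGEs with glucose libraries (8.80 to 9.05 FPKM) below all BSA libraries (9.08 to 10.3 FPKM), with a log2 fold change of -0.12 ± 0.08 (limma SE, adjusted p = 0.894).

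**Figure D5:**
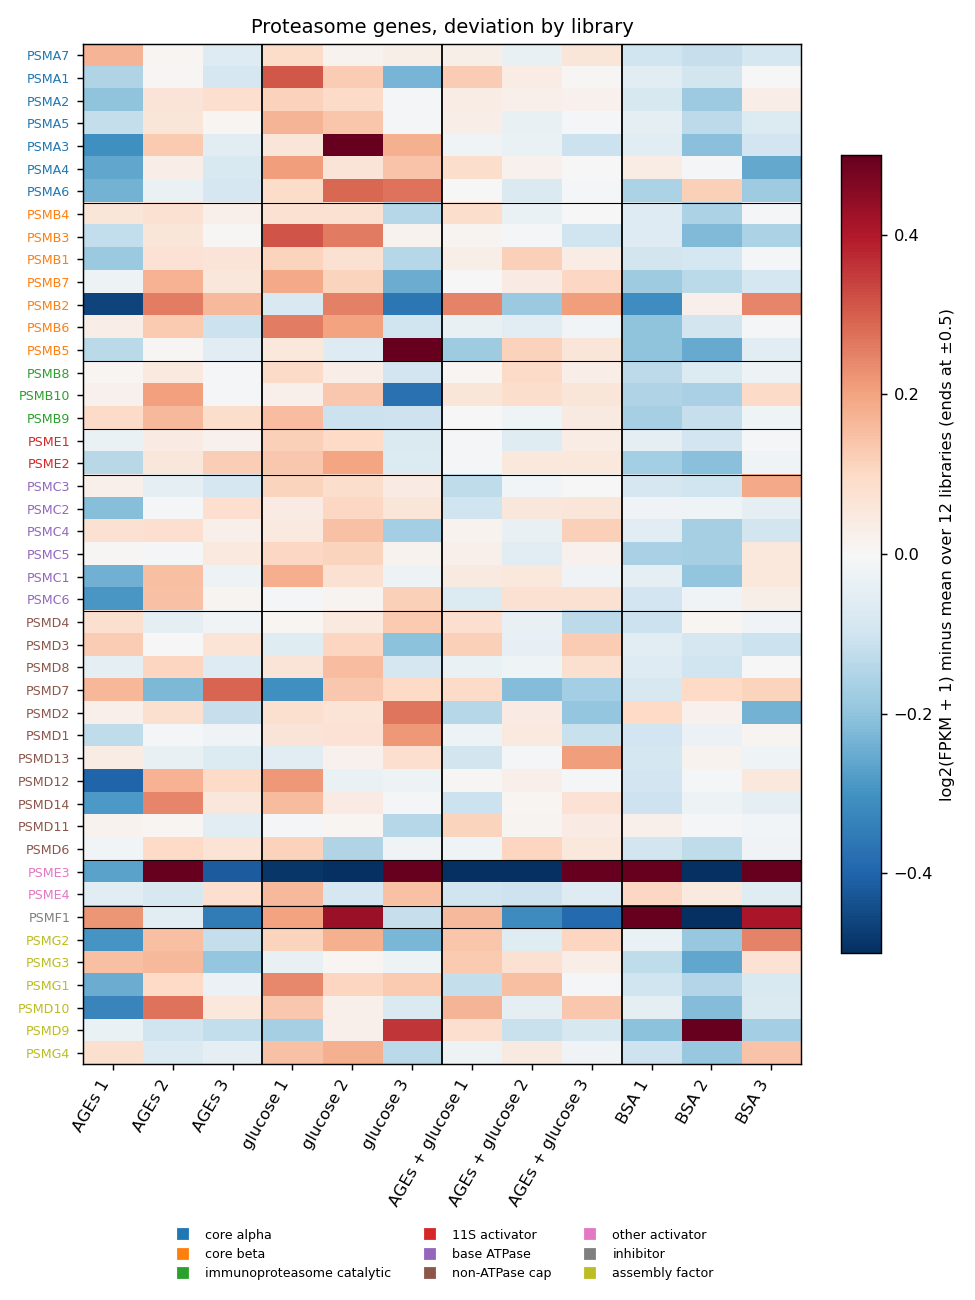
Each proteasome gene in each library as log2(FPKM + 1) minus its mean over the 12 libraries, with gene names coloured by role and the colour scale ending at 0.5 in either direction. Glucose 1 and 2 are mostly red and BSA 1 and 2 mostly blue, while PSME3 and PSMF1 reach both ends of the scale within single groups.

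The 6 assembly genes were above 0 for glucose against BSA, from 0.0097 (PSMG2) to 0.27 (PSMG1), where 49.6% of all genes were. None of the 6 passed. PSMG1 had 7.72, 10.1 and 9.15 FPKM in AGEs, 11.2, 10.1 and 10.3 FPKM in glucose, 8.53, 10.5 and 9.27 FPKM in AGEs with glucose, and 8.65, 8.36 and 8.82 FPKM in BSA. Glucose was separate from BSA, with a log2 fold change of 0.27 ± 0.10 (limma SE, adjusted p = 0.394). PSMD9 stood at 2.27 to 4.40 FPKM, with BSA 2 the highest library and glucose 3 (3.82 FPKM) next, and its log2 fold change for AGEs against BSA, -0.13, turned to 0.10 without BSA 2 (adjusted p = 0.979 with all libraries, limma). PSMG2, at 15.6 to 23.2 FPKM, gave -0.10 for AGEs against BSA (adjusted p = 0.979, limma), and its sign turned without AGEs 1 or without BSA 3. POMP, the maturation factor that completes core assembly, averaged 69.5 ± 15.3 FPKM in AGEs, 80.5 ± 8.78 FPKM in glucose, 77.8 ± 3.30 FPKM in AGEs with glucose and 69.0 ± 7.16 FPKM in BSA (SD, n = 3 each), with a log2 fold change for glucose against BSA of 0.22 (adjusted p = 0.692, limma).

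For AGEs alone the differences from BSA were smaller by median. Of 45 members 30 were above 0 for AGEs against BSA (66.7%, against 49.5% of all genes), with a median of 0.05, and in 8 members every AGEs library was above every BSA library (17.8%, against 4.82%), while in 0 was every one below (against 3.98%). The median was 0.11 without AGEs 1 and 0.0021 without AGEs 2. In AGEs 1 the 22 members of lower GC content had a median deviation of -0.19 and the 23 of higher GC content one of 0.02, and the part of this trend in the result was not tested beyond the alternative that removes it, where the median was 0.04. For AGEs with glucose against BSA, 38 members were above 0 (84.4%, against 47.9%), the median was 0.08, and 10 members were separate and higher (22.2%, against 8.51%). The 1 member separate and lower, PSME4, was 2.22% of the members, against 9.14% of all genes. The comparisons against BSA share the same control libraries, of which BSA 1 and BSA 2 were low for these genes.

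AGEs against glucose does not use BSA, but it shares the glucose libraries with glucose against BSA, so it is not a separate observation. It gave 13 members above 0 (28.9%, against 50.1% of all genes) and a median of -0.07. At an unadjusted p under 0.05, 6 members were lower (13.3%, against 3.88% of all genes) and 0 higher (against 5.73%). Every AGEs library was below every glucose library in 5 members (11.1%, against 5.49%) and above in 0 (against 6.9%). No member passed, and 0.041% of all genes did. The median was -0.02 without AGEs 1. All 7 alpha genes were lower in AGEs than in glucose (median -0.14), with 0 of them at the adjusted threshold. The immunoproteasome catalytic genes had values of 0.0056 for PSMB8, 0.13 for PSMB9 and 0.14 for PSMB10. Their median of 0.13 rested on glucose 3, since it was -0.0072 without that library, with 1 of the 3 above 0, and the alpha median was then -0.24. PSMB9 had the smallest p in the higher direction (log2 fold change 0.13, adjusted p = 0.63, limma). The glucose main effect, the mean of glucose with and without AGEs, put 39 members above 0 (86.7%, against 50.1%) with a median of 0.06, where 0.041% of all genes passed. That median was 0.03 after the removal of GC and length trends. At an unadjusted p under 0.05, 5 members were higher (11.1%, against 3.86%) and 0 lower (against 5.14%). The AGEs main effect put 19 members above 0 (42.2%, against 50% of all genes) with a median of -0.01, and 0.0103% of all genes passed. The interaction was above 0 in 8 of 45 members (17.8%, against 50.2%), with a median of -0.10 and, again, 0.0103% of all genes past the threshold. A value below 0 means that AGEs with glucose stood lower than the sum of the separate differences, and no member passed. Both main effects and the interaction use the same glucose and BSA libraries as glucose against BSA, so they are not separate observations. Since BSA is not labelled for the glucose libraries, the groups are not a clean factorial for the main effects or the interaction.

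The 95% interval of the log2 fold change extended by a median of 0.21 on either side for a pair of groups. It lay within a doubling and a halving in 44 of 45 members in each comparison against BSA, and the exception was PSME3. Of the 45 members, 20 overlap another coding gene in the annotation and 12 have pseudogene copies, PSMC1 the most with 13.

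Genes around the proteasome were read as 4 lists, none with a gene past the adjusted threshold in any comparison. Of 17 genes whose products associate with the proteasome, all 17 were measured, 13 were above 0 for glucose against BSA and the median log2 fold change was 0.04. In that comparison 49.6% of all genes were above 0. Of 12 regulators of proteasome genes 11 were measured, 5 were above 0 and the median was -0.05. NFE2L1, the factor that restores proteasome genes when activity is low, had 22.1, 9.80 and 9.32 FPKM in AGEs, 17.4, 13.6 and 12.6 FPKM in glucose, 8.58, 8.84 and 19.9 FPKM in AGEs with glucose, and 16.7, 22.5 and 18.01 FPKM in BSA. It varied widely inside AGEs and AGEs with glucose, and glucose overlapped BSA (log2 fold change -0.37 ± 0.35, limma SE, adjusted p = 0.791). STAT3 had the smallest p for the glucose main effect in this list (log2 -0.11, adjusted p = 0.55, limma).

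The 16 measured genes of MHC class I processing, of 17 listed, mostly had values below 0 for glucose against BSA, where most proteasome genes were above. Of the 16, 3 were above 0, where 49.6% of all genes were, and the median was -0.10. For AGEs against BSA 8 of the 16 were above 0 (against 49.5% of all genes) with a median of -0.02. For AGEs with glucose against BSA 7 were (against 47.9%), with a median of -0.06. HLA-E, a class I molecule read by natural killer cells, had 191, 191 and 188 FPKM in glucose, 210.4, 211 and 209.6 FPKM in AGEs with glucose, 236.8, 217 and 212 FPKM in AGEs, and 218, 219 and 224 FPKM in BSA. Glucose was separate from and below every other group for HLA-E (log2 fold change against BSA -0.21 ± 0.05, limma SE, adjusted p = 0.161). HLA-E fell past the threshold in limma with library weights (adjusted p = 0.0221), after the removal of GC and length trends (adjusted p = 0.0262) and without AGEs 1 (adjusted p = 0.0378), and did not in the other alternatives run, in which it lay between 0.0695 and 0.423. TAP1 is given above. Of 14 ubiquitin and segregase genes 13 were measured, 9 were above 0 and the median was 0.03. RPS27A, which encodes ubiquitin fused to a ribosomal protein, averaged 269.6 ± 18.7 FPKM in glucose and 243 ± 4.93 FPKM in BSA (SD, n = 3 each). Every glucose library was above every BSA library, with a log2 fold change of 0.15 ± 0.06 (limma SE, adjusted p = 0.453).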

How the data were processed

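RNA sequencing values of 12 libraries in 4 groups were analysed. The authors deposited gene-level FPKM in 1 column per library, per the file headers. Per the submitters' processing notes, STAR 2.5.2b, StringTie, HISAT2 2.0.5 and cutadapt were used with the build hg19, in no stated role. Which annotation, strandedness and filters were applied is not given in the sources used here. Of 10465 rows in all, some shared a symbol (19 symbols), and the highest group mean was at least 0.5001 FPKM in every row.

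Values were analysed as log2(FPKM + 1), which understates changes of low genes. Rows with at least 1 FPKM in at least 3 libraries were kept (9751, with 714 removed). All libraries entered 1 limma 3.58.1 fit (R 4.3.3) of group means with intensity trend and robust moderation. P-values were adjusted over all genes tested by the Benjamini-Hochberg method, threshold 0.05. The procedure was tested on simulated data. GC content, length and overlaps came from GENCODE 29, and motif windows from RefSeq on GRCh38.p14. Genes named were the catalytic and 11S genes, those with the smallest p in each direction, the extremes of level or spread in each role, and a few from each list, of which 2 are not reported here; others named for groups that did not overlap or for an unadjusted p under 0.05 were chosen after their values were seen. The members and lists were chosen with earlier results of these data known. No pair of libraries held identical values.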

Additional observations from a re-analysis of the deposited data

How the results depend on the processing

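Counts of members called, medians (also by role and list), named members and named list genes were recomputed with another pseudocount, filter, scaling, moderation, a fit of only 2 groups (for pairs of groups), library weights, the replicate block, GC and length trends removed (chosen after seeing the data), and each library left out. The count of proteasome genes past the threshold stayed at 0 in 150 recomputations, and the exception was 1 for glucose against BSA with library weights (PSMB3, 0.39). Medians moved by less than the spread between libraries of a group (SD of the library medians, pooled within groups, 0.0495) in 146 recomputations and by more in 5. That SD is larger than the median for AGEs against BSA, 0.046, whose fall to 0.0021 without AGEs 2 thus counts as a smaller move. With library weights the medians were 0.10 for AGEs against BSA and -0.15 for the interaction. With 1 library left out they ran from 0.0021 to 0.11 for AGEs against BSA, from -0.11 to -0.019 for AGEs against glucose and from 0.083 to 0.15 for glucose against BSA. Among members named, signs reversed as follows, all far from the threshold. PSMB10 for glucose against BSA was -0.0085 under quantile normalization, -0.034 after GC and length removal, and -0.10 to 0.15 with 1 library left out. PSMB9 for glucose against BSA ran from -0.0052 (without glucose 1) to 0.12 with 1 library left out, and PSMD11 from -0.072 to 0.0032 (without glucose 3). PSMD9 for AGEs against BSA ran from -0.26 to 0.10 (without BSA 2). PSMG2 for AGEs against BSA ran from -0.22 to 0.023 (without BSA 3, and 0.0072 without AGEs 1), and was -0.032 for the interaction with library weights. PSME1 under quantile normalization and after GC and length removal was -0.014 and -0.024 for AGEs against BSA, and -0.021 and -0.0603 for AGEs with glucose against BSA. PSMB6 for AGEs with glucose against BSA was -0.063 after GC and length removal. Role and list medians and list genes were added to these checks after seeing the data. PSMB8 for AGEs against glucose was -0.024 with library weights, -0.032 after GC and length removal, and -0.049 (without glucose 3) to 0.048 with 1 library left out, also below 0 without AGEs 2 (-0.010). PSMB10 there ran from -0.0072 (without glucose 3) to 0.25. With 1 library left out, medians for AGEs against BSA ran from -0.063 to 0.073 for alpha genes and from -0.0028 to 0.063 for non-ATPase cap genes, both below 0 without AGEs 2. For AGEs against glucose they ran from -0.0072 (without glucose 3) to 0.19 for immunoproteasome genes and from -0.048 to 0.024 (without AGEs 1) for non-ATPase cap genes. For glucose against BSA they ran from -0.0052 (without glucose 1) to 0.14 for immunoproteasome genes, from -0.00092 (without glucose 3) to 0.037 for ubiquitin and segregase genes, and from -0.086 to 0.019 (without BSA 3) for regulators, which were at 0.0027 after GC and length removal. Ratios of levels were not recomputed. The cause was not tested.

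Same-numbered libraries deviated together with correlations of -0.214 to 0.128, and 2 of 18 were over 0.1. Among pairs with other numbers, 6 of 36 were. These 6 linked AGEs 1, BSA 2 and glucose 3 with each other (0.162 to 0.194), and AGEs 2, BSA 3 and glucose 1 (0.136 to 0.17). So some libraries of different groups deviated together across numbers, and the cause was not tested. No pairing by number was seen, but such correlations cannot show that same-numbered libraries were handled apart. With the replicate block 0 proteasome genes passed in any comparison, the median for glucose against BSA was 0.10, and 8 members were higher at an unadjusted p under 0.05 (17.8%, against 4.26% of all genes), where 11 were without the block (24.4%, against 4.68%) and 22 with library weights (48.9%, against 8.56%). FPKM keeps no counts, so depth cannot be set beside any of these values.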
